A study of Sus scrofa with 6 samples.

Results

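The transforming growth factor beta (TGF-beta) and bone morphogenetic protein (BMP) pathway genes described here are 47 genes, each read by 1 probe, of 10867 genes that carry a single symbol among 12258 probes on an array of porcine transcripts. They were taken by name: gene symbols that start with BMP, GDF, INH, TGFB, SMAD, SMURF, ACVR, LTBP, GREM or AMH, or that are ID1, ID2, ID3, ID4, NOG or NODAL, on probes that carry a single symbol. No SMURF gene, and none of INHA, INHBB, ID3 and NODAL, was matched in this way. SMAD3 is listed together with SMAD2 on a probe that was therefore not used. The member SMAD2 is read by another probe, which carries only that symbol. The 4 well-known relatives, BMP15, GDF9, INHBA and TGFBR3, are left out of the set. For 4 members, TGFB2, ACVR1C, SMAD5 and TGFBI, the annotation lists the same symbol more than once, and SMAD5 and BMP8B may share signal with other gene records or with the copy BMP8A. By role the set holds 18 ligands, 7 type I and 5 type II receptors, 1 gene related to a co-receptor, 5 extracellular regulators, 7 SMAD genes and 4 targets.

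Each of the 6 arrays measured RNA of a pool of 50 grade I oocytes of pubertal crossbred Landrace gilts, a pig breed. After maturation there were 3 pools, from cumulus-oocyte complexes cultured for 44 h at 38 °C under 5% CO2 in a medium with 10% follicular fluid, 2.5 IU/ml hCG and 2.5 IU/ml eCG. Before maturation there were 3 pools, whose titles name them in vivo and whose descriptions place them ahead of that culture. Since no pool was cultured without maturing, the effects of maturation and of culture cannot be told apart. The labels do not tie a dye test that the design text mentions to single pools.

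In this pathway a dimeric ligand brings type II and type I receptors together, and the type I receptor phosphorylates SMAD proteins, which join SMAD4 and enter the nucleus. Activins and TGF-beta act mainly through SMAD2 and SMAD3, and BMPs and AMH through SMAD1, SMAD5 and SMAD9. SMAD6 and SMAD7 inhibit the pathway, and the ID genes are classic targets of BMP signals. In the ovary the oocyte secretes GDF9 and BMP15, while granulosa and cumulus cells, the somatic cells around it, make activins, inhibins and AMH and carry receptors for the oocyte's factors.

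Most members kept within a small range, and the 5 changes of at least 2-fold were decreases, in the targets ID2, ID1 and TGFBI, the protease gene BMP1 and the shared transducer SMAD4. All levels are log2 values, and every difference is after minus before maturation. At an adjusted p under 0.05 in limma, a linear model fitted over all probes, 3 members rose, 9 fell and 35 did not pass. Over all probes 3.21% were called higher and 8.07% lower, and among the members the shares were 6.38% and 19.1%. The members' median difference was 0.14, beside 0.08 over all probes, and 61.7% of the members had a positive difference, beside 65.4% of all probes. For 16 members every matured pool lay above every pool before maturation, and for 12 members below it, which is 34.0% and 25.5%, beside 21.7% and 14.4% of all probes. A decrease of at least 2-fold was seen in 5 members and an increase of that size in 0, beside 3.30% and 0.359% of all probes.

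**Figure D1:**
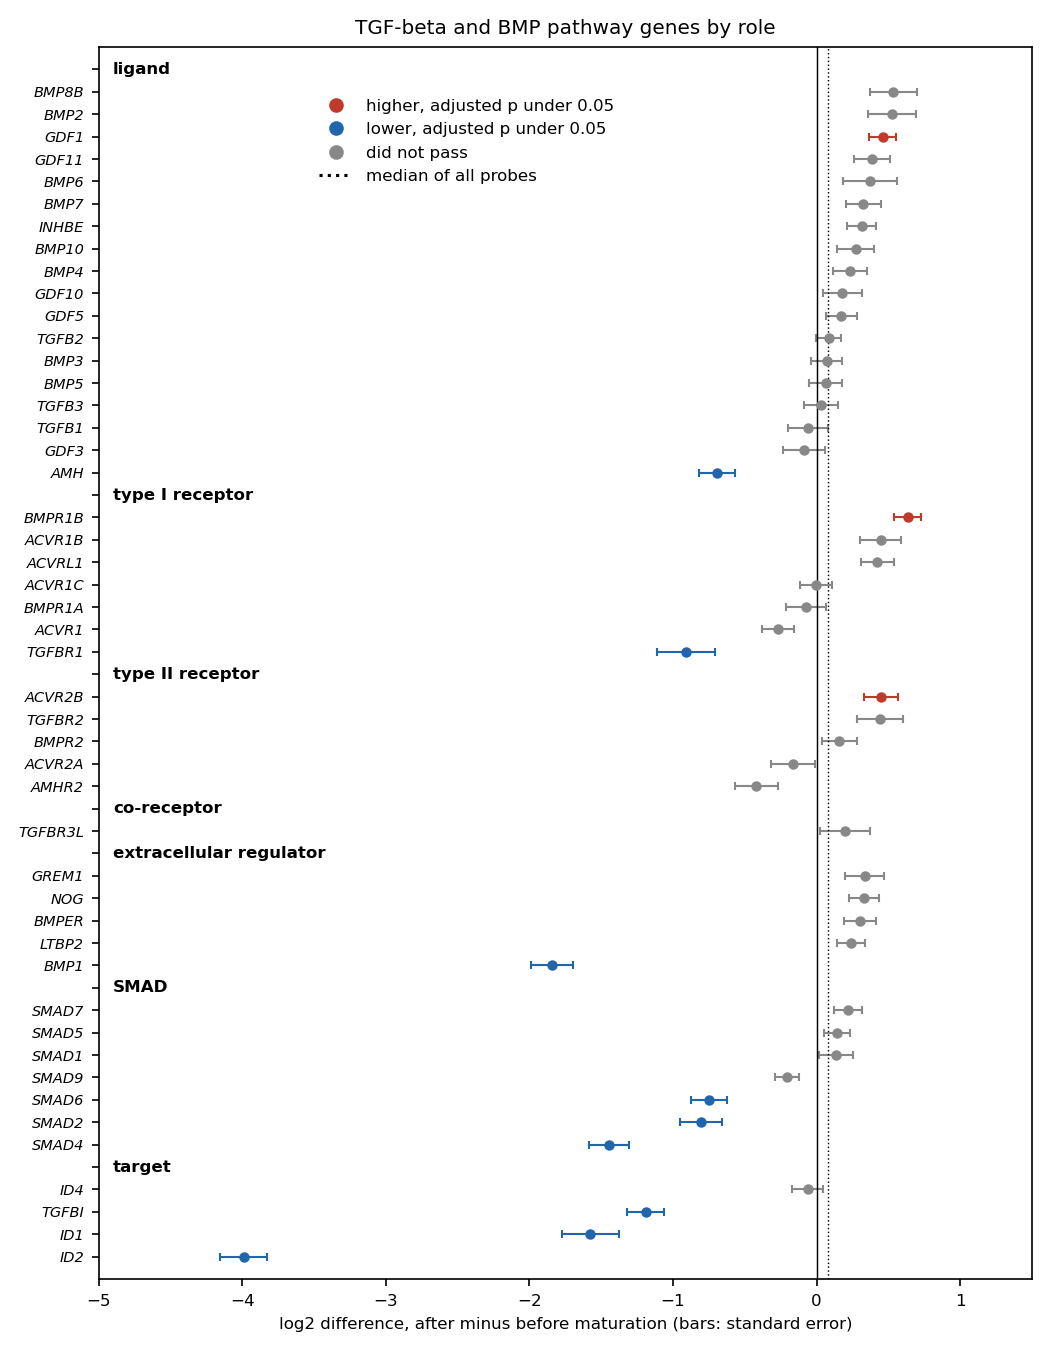
Difference in log2 level (after minus before maturation, x axis) of each of the 47 members, ordered by role, with its standard error as a bar. Blue points are the 9 members called lower, red points the 3 called higher, and grey points the 35 that did not pass, while the dotted line is the median of all probes (0.08).

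The arrays behind these values were alike in scale, with medians of 5.62 to 5.64 after maturation and 5.67 to 5.70 before it. Correlations across probes were 0.994 to 0.995 among the matured pools and 0.989 to 0.993 among the pools before maturation, and replicate 3 before maturation correlated least with the matured pools (0.965 to 0.970). The members varied somewhat more between replicates than probes in general, with a median SD of 0.16 in both groups, beside 0.12 after and 0.13 before maturation over all probes. Markers of the oocyte were present, with 11 measured and summed linear levels of 21507 to 22554 after and 24210 to 25816 before maturation, and 3 of them fell (ZP3, ZP4 and KIT) and 0 rose. Markers of cumulus and granulosa cells were present as well: the linear levels of 15 measured genes summed to 3819 to 3917 after maturation and 5706 to 7475 before it. Of these, 7 fell (HSD17B1, ESR1, SERPINE2, GJA1, CDH2, NR5A1 and NR5A2) and 2 rose (HSD3B1 and GSTA1), beside 8.07% lower and 3.21% higher over all probes. The falls reached -4.41 in HSD17B1 and -3.61 in ESR1. The brightest gene by mean log2 level was GSTA1 after maturation (10.93) and GJA1 before it (10.91). Of 9 genes of cumulus expansion 5 rose (HAS2, PTGS2, PTX3, HAPLN1 and CD44) and 1 fell (VCAN). Their summed linear levels were 1411 to 1451 after and 1626 to 2232 before maturation. VCAN, the brightest of them (log2 10.14 after and 10.74 before), makes up most of each sum. The lower sum thus mainly follows VCAN and not the dimmer genes that rose. The part of these marker lists in the results on the members was not tested. In pooled RNA, fewer cells of a type and less RNA per cell cannot be told apart. Of 5 endothelial markers limma called 0, of 7 leukocyte markers 1 higher, and of 10 theca and stroma markers 2 higher and 1 lower. With the replicate number as a block it called 1 endothelial marker higher (SOX17), 2 leukocyte markers higher (CD3E and CD14), and 3 theca and stroma markers higher and 1 lower. Arrays of the groups overlapped in summed level for endothelial markers (328 to 406 after, 329 to 344 before) and theca and stroma markers (446 to 464 after, 461 to 608 before), and not for leukocyte markers (504 to 532 after, 425 to 462 before).

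The targets held the largest decrease. Inhibitor of DNA binding genes encode proteins that block transcription factors of the basic helix-loop-helix class. ID2 had log2 levels of 6.40, 6.67 and 6.15 after maturation, against 10.55, 10.12 and 10.52 before it. The groups lay far apart on every array, a 15.9-fold lower level (difference -3.99, SE 0.16, adjusted p = 7.06e-06). ID1 stood at 4.99, 4.83 and 4.62 after maturation, against 6.85, 6.21 and 6.10 before it. It thus fell as well, 2.98-fold (difference -1.58, SE 0.20, adjusted p = 0.0017), and replicate 1 was the highest array of each group. ID4, by contrast, had 5.05, 5.24 and 5.24 after and 5.26, 5.09 and 5.36 before maturation, with overlapping groups and a difference of -0.06 (95% interval -0.31 to 0.18, adjusted p = 0.724). TGFBI, which encodes a matrix protein that TGF-beta induces, had 6.46, 6.81 and 6.75 after maturation, against 7.81, 8.04 and 7.74 before it. Its level was 2.28-fold lower without overlap (difference -1.19, SE 0.13, adjusted p = 0.000771).

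**Figure D2:**
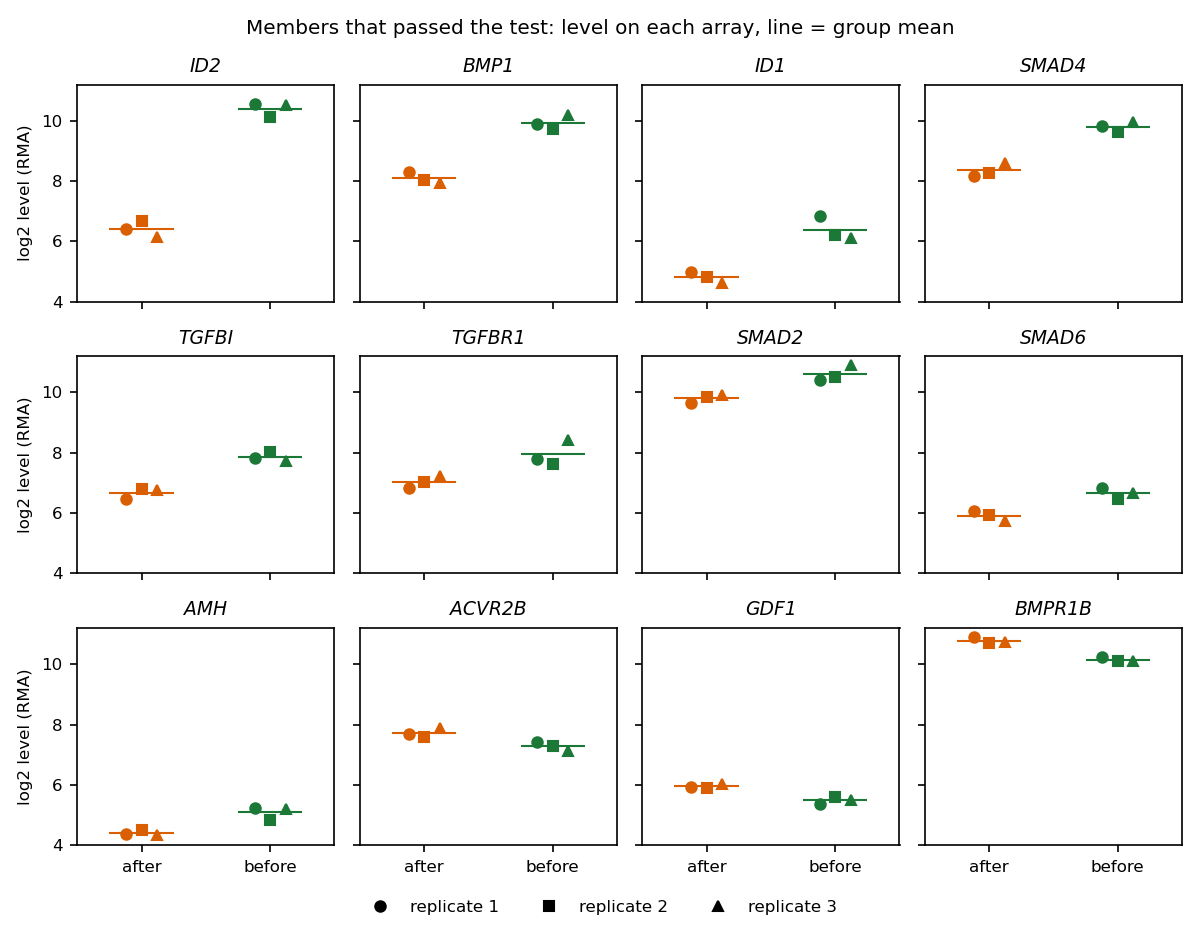
Log2 level (y axis) of the 12 members that passed the test on each array, after maturation at the left and before it at the right of each panel, with symbols for replicates 1, 2 and 3 and a line at the group mean. The panels run from the largest decrease, in ID2 (-3.99), to the largest increase, in BMPR1B (0.63), and no panel has overlapping groups.

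Among the SMAD genes, which carry the signal into the nucleus, 3 of 7 fell, 0 rose and 4 did not pass. SMAD4, the partner that the other signal-carrying SMAD proteins share, had 8.17, 8.28 and 8.61 after maturation, against 9.81, 9.63 and 9.95 before it. Every matured pool was lower than every pool before maturation, by 2.72-fold on average (difference -1.44, SE 0.14, adjusted p = 0.00045). SMAD2, the transducer of activin and TGF-beta signals, had 9.65, 9.86 and 9.91 after maturation, against 10.40, 10.52 and 10.91 before it. This was 1.75-fold lower (difference -0.80, SE 0.15, adjusted p = 0.0105). None of the 3 transducers of BMP signals passed the test. SMAD1 differed by 0.14 (95% interval -0.14 to 0.41, adjusted p = 0.472) and SMAD5 by 0.14 (95% interval -0.07 to 0.35, adjusted p = 0.332). SMAD9 had a lower value in each matured pool, 4.69, 4.74 and 4.61 against 4.88, 4.86 and 4.93, and a difference of -0.21 that did not pass (adjusted p = 0.158). Whether SMAD2 changed differently from SMAD1, SMAD5 or SMAD9 was not tested.

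Of the inhibitory SMAD genes SMAD6 passed the test and SMAD7 did not, and the difference between them was not tested. SMAD6, which acts mainly against BMP signals, had 6.07, 5.93 and 5.73 after maturation, against 6.83, 6.48 and 6.67 before it. It was 1.68-fold lower without overlap (difference -0.75, SE 0.13, adjusted p = 0.00772). SMAD7, which inhibits both branches, had 3.92, 3.74 and 3.70 after and 3.49, 3.63 and 3.58 before maturation, with a difference of 0.22 (adjusted p = 0.180). All 6 of its values lay under the lower quartile of their arrays (4.27 to 4.45), and whether they exceeded background was not tested. SMAD2 lost the call without replicate 1 after maturation (-0.73, adjusted p = 0.0556).

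Type I receptors moved in both directions. BMPR1B, a BMP receptor that also serves BMP15 in cumulus and granulosa cells, had 10.90, 10.71 and 10.73 after maturation, against 10.23, 10.12 and 10.09 before it. It rose 1.55-fold (difference 0.63, SE 0.10, adjusted p = 0.00471), the largest increase among the members, and replicate 1 was again the highest array of each group. TGFBR1, the type I receptor of TGF-beta that GDF9 also uses, fell to 6.83, 7.04 and 7.24 in matured pools, against 7.79, 7.64 and 8.41 before maturation. This was a 1.88-fold lower level (difference -0.91, SE 0.20, adjusted p = 0.0247), and the call was lost without replicate 1 after maturation (-0.81, adjusted p = 0.103) and without replicate 2 after maturation (-0.91, adjusted p = 0.0887). The activin receptor ACVR1B had 9.96, 9.62 and 9.87 after and 9.55, 9.46 and 9.10 before maturation, higher on every matured array but not past the test (0.45, 95% interval 0.12 to 0.77, adjusted p = 0.0830). ACVRL1, a BMP receptor best known from blood vessels, had 5.38, 5.57 and 5.39 after and 5.10, 5.15 and 4.82 before maturation (0.42, adjusted p = 0.0532). The remaining type I receptors gave differences of -0.27 for ACVR1 (adjusted p = 0.148), -0.08 for BMPR1A (95% interval -0.39 to 0.24) and -0.01 for ACVR1C (95% interval -0.26 to 0.25).

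Of the type II receptors 1 of 5 rose and 0 fell. ACVR2B, a receptor that activins and several BMPs share, had 7.69, 7.59 and 7.89 after maturation, against 7.42, 7.28 and 7.13 before it. The groups did not overlap, and the 1.36-fold increase lay just inside the threshold (difference 0.45, SE 0.12, adjusted p = 0.0456). With the replicate number as a block it lay just outside (adjusted p = 0.0503), and it was also lost without any single array other than replicate 1 before maturation (adjusted p = 0.0716 to 0.122). Its relative ACVR2A differed by -0.16 (95% interval -0.51 to 0.19, adjusted p = 0.510), with replicate 3 before maturation, at 5.99, above the other 5 arrays (5.40 to 5.52). BMPR2, which binds BMPs, BMP15 and GDF9, differed by 0.16 (95% interval -0.12 to 0.44, adjusted p = 0.412). TGFBR2, the type II receptor of TGF-beta, had 4.80, 5.14 and 4.69 after and 4.55, 4.61 and 4.15 before maturation (0.44, adjusted p = 0.114). AMHR2, the receptor of AMH, had 5.51, 5.59 and 5.06 after and 5.68, 5.91 and 5.83 before maturation, lower on every matured array but not past the test (-0.42, 95% interval -0.76 to -0.08, adjusted p = 0.109). TGFBR3L, whose product is a co-receptor of inhibin B in mouse pituitary cells, gave 0.20 (95% interval -0.20 to 0.60, adjusted p = 0.470).

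Of the 18 ligands 1 rose, 1 fell and 16 did not pass. AMH, anti-Müllerian hormone, a product of granulosa cells, fell to 4.36, 4.51 and 4.34 in matured pools, against 5.23, 4.85 and 5.21 before maturation. Its level was 1.62-fold lower (difference -0.69, SE 0.12, adjusted p = 0.0102), and after maturation it lay close to the lower quartiles of the arrays (4.33 to 4.45). Without replicate 1 after maturation the call was lost (-0.67, adjusted p = 0.0536). GDF1, a ligand of left-right patterning in mouse embryos, had 5.94, 5.89 and 6.01 after maturation, against 5.38, 5.59 and 5.50 before it. It rose 1.38-fold (difference 0.46, SE 0.09, adjusted p = 0.0184), a call that was lost without any single matured array (adjusted p = 0.0522 to 0.0691). In human, GDF1 and the ceramide synthase gene CERS1 share a transcript, and which of them this probe reads was not tested.

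Several other ligands, of both branches, had higher values after maturation that did not pass. BMP2 had 9.26, 9.22 and 8.92 after and 8.92, 8.60 and 8.30 before maturation, so that the lowest matured pool and the highest pool before maturation nearly coincided (0.52, SE 0.17, adjusted p = 0.0817). BMP8B stood at 7.80, 7.63 and 7.64 after and 7.30, 7.40 and 6.77 before maturation, with replicate 3 before maturation apart from the rest (0.53, SE 0.16, adjusted p = 0.0727). GDF11, a relative of myostatin, had 5.11, 5.22 and 4.92 after and 4.64, 4.89 and 4.56 before maturation (0.39, SE 0.12, adjusted p = 0.0851). INHBE, an activin subunit gene known from liver, gave 0.32 (adjusted p = 0.0826), BMP6 gave 0.37 (adjusted p = 0.229) and BMP4 gave 0.23 (adjusted p = 0.221). BMP7, at 0.33 (adjusted p = 0.130), and INHBE lay under the lower quartile of every array before maturation.

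The remaining ligands did not pass either, and some were dim. TGFB1 and TGFB3, ligands of the TGF-beta type itself, differed by -0.06 (95% interval -0.38 to 0.26) and 0.03 (95% interval -0.24 to 0.30), and TGFB2 by 0.08. BMP3, BMP5, BMP10 and TGFB2 lay under the lower quartile on all 6 arrays, with differences of 0.07, 0.06, 0.27 and 0.08. GDF5, GDF10 and GDF3 gave 0.17, 0.18 and -0.09 (adjusted p = 0.309, 0.393 and 0.707). Their 95% intervals were -0.07 to 0.41, -0.12 to 0.48 and -0.42 to 0.24. The 16 uncalled ligands thus ran from -0.09 to 0.53, and 15 of all 18 ligands (83.3%) had a positive difference, beside 65.4% of all probes.

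Of the 5 extracellular regulators, BMP1 fell and 4 did not pass. BMP1 is no growth factor despite its name but a metalloprotease that cleaves procollagens and the BMP antagonist chordin. BMP1 had 8.31, 8.05 and 7.92 after maturation, against 9.89, 9.74 and 10.19 before it. The level was 3.59-fold lower, with every matured pool under every pool before maturation (difference -1.84, SE 0.15, adjusted p = 0.000156). The other 4 gave positive differences that did not pass. GREM1, gremlin, which the oocyte's factors are known to induce in cumulus cells, had 9.40, 9.26 and 9.36 after and 9.21, 9.10 and 8.70 before maturation (0.34, 95% interval 0.02 to 0.65, adjusted p = 0.150). NOG, noggin, gave 0.33 (adjusted p = 0.0808) and BMPER, a modulator that binds BMPs, gave 0.30 (adjusted p = 0.118). LTBP2, a fibrillin-binding relative of the latent TGF-beta binding proteins, gave 0.24 (adjusted p = 0.154). The groups were separate on all arrays for each of these 5 genes, 4 higher and 1 lower, beside 21.7% and 14.4% of all probes.

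**Figure D3:**
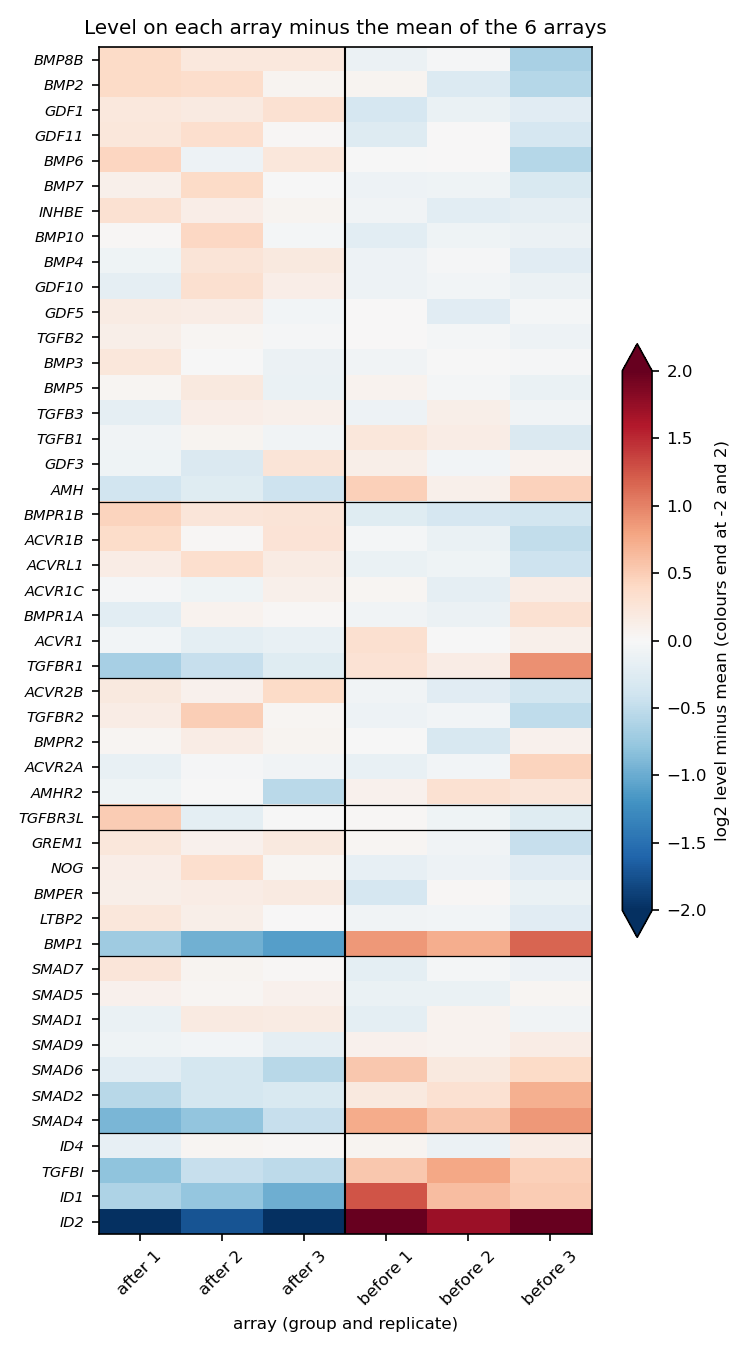
Log2 level of each of the 47 members (rows, ordered by role) on each array (columns, matured pools left of the line) minus the member's mean over the 6 arrays. The rows of ID2, BMP1, SMAD4, ID1 and TGFBI turn from blue in all 3 matured pools to red in all 3 pools before maturation, while most other rows stay pale, and BMP8B and TGFBR1 deviate most in replicate 3 before maturation.

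With the replicate number as a block, the count of members called higher was 7 and that of members called lower 9, which is 14.9% and 19.1%, beside 5.07% and 10.0% of all probes. The block added BMP2 (adjusted p = 0.0173), BMP8B (0.0375), GDF11 (0.0360), ACVRL1 (0.0337) and TGFBR2 (0.0319) as limma adjusted p-values, and left out ACVR2B. The same 9 members were lower with and without the block. The values within numbered pairs show what it acts on: BMP2 differed by 0.33, 0.62 and 0.62 in pairs 1, 2 and 3, and TGFBR1 by -0.96, -0.61 and -1.17.

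The split between increases and decreases depended on how the arrays were scaled. With each array at a common median 10 members were called higher and 9 lower, beside 7.46% and 7.27% of all probes, and after a second quantile normalization 5 higher and 9 lower, beside 4.86% and 7.06%. Cyclic loess left 3 higher and 9 lower, beside 2.07% and 8.61%. A scaling that holds the mean of 37 ribosomal protein probes level moved the median probe to 0.57, and then 34 members were called higher and 6 lower, beside 79.9% and 4.09% of all probes. That scaling shifts the difference of every probe by the same amount. The members' median relative to the median probe, 0.06, was therefore bound to stay as it was on the deposited scale. Under it AMH, SMAD2 and SMAD6 kept negative values that did not pass (-0.20, -0.31 and -0.26), while ID2, BMP1, ID1, SMAD4, TGFBI and TGFBR1 were still called lower.

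**Figure D4:**
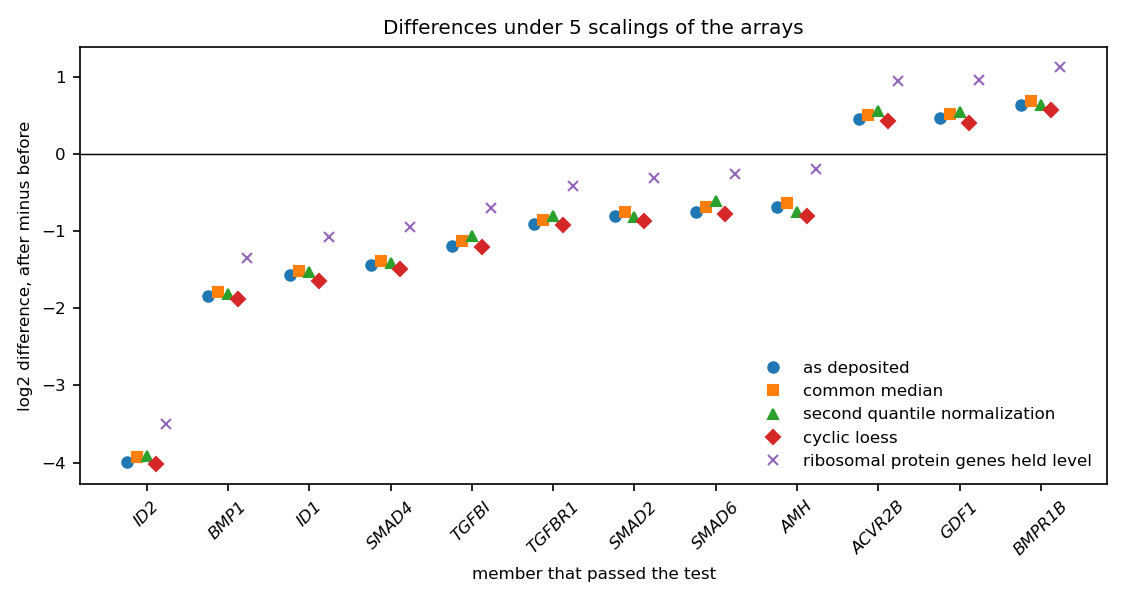
Difference in log2 level (after minus before maturation, y axis) of the 12 members that passed the test (x axis) under 5 scalings of the arrays. No member crosses 0. The crosses, for ribosomal protein genes held level, lie above the deposited values by the same shift in each column, with ID2 at -3.50 and BMPR1B at 1.13.

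The counts of called members shifted when single arrays were left out. Without replicate 1, 2 or 3 after maturation 1, 1 and 1 members were called higher and 6, 8 and 9 lower, beside 0.840%, 0.971% and 1.66% of all probes higher and 4.33%, 4.45% and 6.03% lower. Without replicate 1, 2 or 3 before maturation 4, 2 and 2 members were called higher and 9, 9 and 9 lower, beside 3.54%, 2.10% and 1.35% of all probes higher and 8.26%, 6.71% and 6.41% lower. Against a change of 1.5-fold, 0 members were called higher and 5 lower (BMP1, TGFBI, SMAD4, ID1 and ID2), beside 0.220% and 1.81% of all probes.

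The 4 relatives outside the set included decreases of similar size. INHBA, the activin A subunit gene, had 8.37, 8.24 and 8.07 after and 10.18, 10.17 and 10.49 before maturation, and TGFBR3, the co-receptor betaglycan, had 5.00, 5.16 and 5.46 after and 7.86, 7.26 and 7.53 before it (adjusted p = 3.52e-05 and 0.000107), whereas GDF9 and BMP15 did not pass (adjusted p = 0.681 and 0.395). With these 4 added, 3 genes were higher and 11 lower.

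Other genes of the pathway, outside the names of the set, were read from 6 lists. Of 90 genes 59 were measured, of which 5 rose, 11 fell and 43 did not pass, beside 3.21% higher and 8.07% lower over all probes, and their median difference was 0.09, beside 0.08 over all probes. HAS2, also planned as a target, is missing from these values because its probe carries the symbol SHAS2. That probe rose by 1.72 (limma adjusted p = 0.00198). The secreted antagonists had 3 of 8 genes lower and 0 higher. CHRDL1, a chordin-like BMP antagonist, had 5.20, 5.43 and 5.14 after and 8.11, 7.93 and 8.26 before maturation (-2.84, adjusted p = 8.47e-06). FST, follistatin, which binds activins, had 7.96 ± 0.11 after and 10.11 ± 0.31 before maturation (SD, n = 3 each; limma adjusted p = 9.57e-05). TWSG1, a chordin partner, fell by 1.75 (adjusted p = 0.00100). The other antagonists did not pass, such as BAMBI, a decoy receptor gene (-0.30, adjusted p = 0.224). With the block SOST, sclerostin, was called higher (0.43, adjusted p = 0.0290), as was THBS1, an activator of latent TGF-beta (0.41, adjusted p = 0.0300).

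Genes of ligand latency and processing were called in 6 of 14 cases, 5 lower and 1 higher. HTRA1, a serine protease that acts on TGF-beta family signals, had 6.90, 6.64 and 6.69 after and 9.77, 9.61 and 9.85 before maturation (-3.00, adjusted p = 4.21e-06). ITGB8 and ITGAV, subunits of an integrin that activates latent TGF-beta, fell by 1.70 (adjusted p = 0.00615) and by 0.57 (adjusted p = 0.0435), and the call of ITGAV was lost in 10 of 17 alternatives, among them without any single array other than replicate 2 before maturation (adjusted p = 0.0782 to 0.147). MMP14, a membrane metalloprotease, fell by 1.03 (adjusted p = 0.0244), lost without replicate 1 or 2 after maturation and without replicate 2 or 3 before it. PCSK6, a proprotein convertase, fell by 0.82 (adjusted p = 0.0111), lost without replicate 1 after maturation. FBN2, a fibrillin, rose by 1.19 (adjusted p = 0.00295) and lay under the arrays' lower quartile before maturation. FURIN, the convertase that matures many ligands of the family, differed by 0.10 (adjusted p = 0.709).

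Regulators of signalling inside the cell were called in 2 of 14 cases, both higher. DAB2, an endocytic adaptor that binds TGF-beta receptors, had 7.90, 7.89 and 7.87 after and 6.41, 5.46 and 5.78 before maturation (4.01-fold higher, adjusted p = 0.000700). CAV1, caveolin, gave 0.49 (adjusted p = 0.0402) from dim values, a call lost in 8 of 16 alternatives. Nuclear partners fell in 2 of 8 cases. SKIL, a repressor of SMAD proteins that TGF-beta itself induces, had 5.21, 5.19 and 5.39 after and 7.12, 6.85 and 8.01 before maturation (-2.06, adjusted p = 0.00177), and ATF3, a stress factor that works with SMAD3, fell by 2.96 (adjusted p = 1.87e-05). Of 12 further targets, a count without HAS2, 1 fell and 2 rose. KLF10, an early TGF-beta response gene, fell by 1.30 (adjusted p = 0.00324), PTGS2 and PTX3, genes of cumulus expansion, rose by 1.11 and 0.67 (adjusted p = 0.000752 and 0.0371), and CCN2 had -1.44 with an SE of 0.40 (adjusted p = 0.0542, and 0.00285 with the block). PTX3 lost its call in 8 of 16 alternatives. Of 3 co-receptor genes 0 were called with limma, and ENG, endoglin, gave 0.27 (adjusted p = 0.236).

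**Figure D5:**
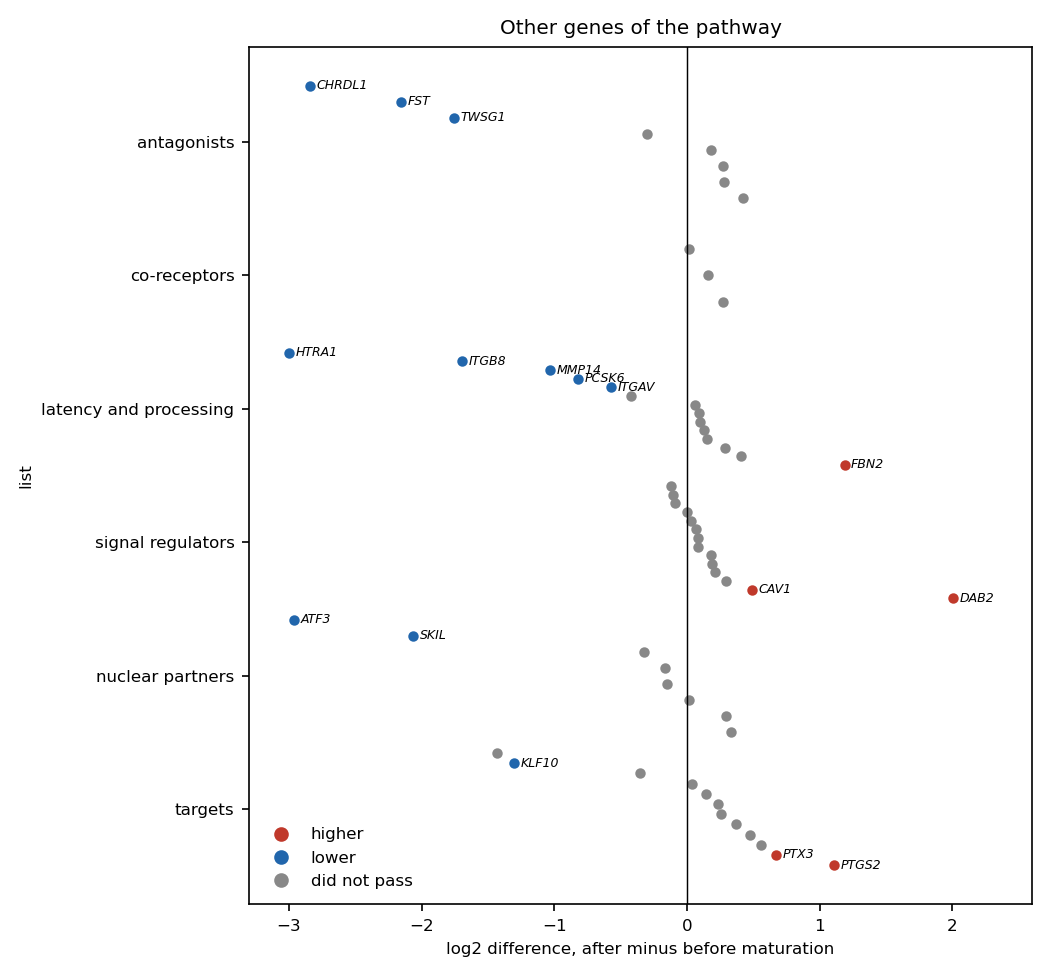
Difference in log2 level (after minus before maturation, x axis) of 59 measured genes of the pathway outside the set, by list (y axis, spread vertically only for legibility). HAS2 is not shown. The 11 blue genes called lower reach -3.00 in HTRA1, and of the 5 red genes called higher DAB2 lies farthest to the right.

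The number of arrays limits every value: with 3 unpaired arrays in each group, the smallest two-sided p that exact permutation allows is 0.10. Replicates are labelled biological, and the p-values set each difference against the spread between these pools, which limma moderates with all probes. The smallest member difference that passed was 0.45, in ACVR2B, and the largest that did not was 0.53, in BMP8B. With the replicate block both calls turned, BMP8B passing (adjusted p = 0.0375) and ACVR2B not (adjusted p = 0.0503), and GDF11 passed at a difference of 0.39.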

How the data were processed

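The deposited table holds log2 expression values that the authors made with RMA, per the submitters' processing notes. Per the labels' protocols, 100 ng of total RNA per pool went through 2 rounds of amplification and onto Affymetrix arrays. The sources used here name no RMA version, options or genome build. That the values are log2 follows from the method and from their range. RMA as usually run forces the arrays to a common distribution, so a global change in RNA content would not show. The deposited arrays did not share a distribution exactly, with medians of 5.62 to 5.64 after and 5.67 to 5.70 before maturation. The source of this gap was not tested.

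Members were matched on the platform annotation's symbol, a symbol repeated for a probe counting once, and each of the 47 had 1 probe. Of 12258 probes 10922 had a single symbol. Differences came from limma 3.58.1, run under R 4.3.3 with lmFit followed by eBayes on the whole table, and two-sided p-values were adjusted by Benjamini-Hochberg over all probes (threshold 0.05). Tables and figures used Python 3.11.15, pandas 2.3.3 and matplotlib 3.10.9. The members and lists were chosen with earlier results of these data known. Every member was described, those called with the value on every array.

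Deviations from the group mean correlated at 0.283, 0.120 and 0.142 between arrays that share a replicate number. Between arrays with different numbers they correlated at -0.168 to 0.019. Deviations cancel within a group, so positive values at equal numbers push those at different numbers toward negative ones. Every pair of equal number passed the criterion of over 0.1, but such correlations alone cannot establish pairing. The labels state no pairing, so the fit without the block was the main one and the block an alternative. Data were also simulated with 12258 probes, 40 per size of change, from each probe's mean and spread with independent normal noise. The fit recovered 39 probes raised by 1 (log2), 39 lowered by 1, 23 raised by 0.5 and 15 lowered by 0.5. It also called 19 unchanged ones. The simulation held no array or pair effects, so recovery in the real data may differ. The alternatives were the replicate block, 4 scalings, leaving out the dimmest probes, trended or weighted variances, a test against a 1.5-fold change, 1 probe per gene and leaving out each array.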

Additional observations from a re-analysis of the deposited data

How the results depend on the processing

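Of 9 members called lower, ID2, BMP1, SMAD4, ID1 and TGFBI were called in every alternative that tested them. With the replicate block the calls were 621 higher over all probes, and 7 higher among the members, and the blocked fit changed no call of a gene named above other than those given there. Calls higher over all probes were 915 with a common median, 596 after a second quantile normalization, 254 with cyclic loess, 9793 with ribosomal protein genes held level, 211 without the dimmest 50% of probes and 27 against a 1.5-fold change. Calls lower over all probes were 501 with ribosomal protein genes held level and 222 against a 1.5-fold change. Leaving out 1 array gave 103 to 434 higher and 531 to 1013 lower. Among the members, calls higher were 10 with a common median, 5 after a second quantile normalization, 34 with ribosomal protein genes held level and 0 against a 1.5-fold change, and 1 to 4 without 1 array. Calls lower were 5 against a 1.5-fold change and 6 to 9 without 1 array, lowest without replicate 1 after maturation, where AMH, SMAD2 and TGFBR1 were lost. The members' median difference was 0.64 with ribosomal protein genes held level. Other pathway genes were higher in 3 cases with cyclic loess, 42 with ribosomal protein genes held level, 1 without the dimmest 50% of probes and 2 against a 1.5-fold change, lower in 6 against a 1.5-fold change, and higher in 3 to 5 without 1 array. These counts of other pathway genes leave out HAS2.

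Signs turned only for members whose main difference was at most 0.20 in size (the largest in TGFBR3L) or, with ribosomal protein genes held level, for GDF3 (0.41), TGFB1 (0.44), ACVR1 (0.22), BMPR1A (0.42), ACVR1C (0.49), ACVR2A (0.33), AMHR2 (0.075), SMAD9 (0.29) and ID4 (0.43). A second quantile normalization turned BMP3 (-0.016) and TGFB3 (-0.067). Cyclic loess turned BMP3 (-0.025), BMP5 (-0.020), TGFB2 (-4.44e-05), TGFB3 (-0.074) and, outside the set, GDF9 (-0.020). Array weights turned TGFB3 (-0.028) and ACVR1C (0.064), and a common median turned ACVR1C (0.049). Leaving out 1 array turned signs within ranges of -0.025 to 0.15 for BMP3, -0.019 to 0.15 for BMP5, -0.24 to 0.038 for GDF3, -0.21 to 0.040 for TGFB1, -0.028 to 0.13 for TGFB3, -0.16 to 0.061 for BMPR1A, -0.097 to 0.067 for ACVR1C, -0.27 to 0.021 for ACVR2A, -0.0013 to 0.34 for TGFBR3L and -0.14 to 0.0023 for ID4. The mean of several probes per gene was not run, since no member has more than 1. Choosing only members whose symbol is listed once, an alternative chosen after seeing the data, gave 3 higher and 8 lower. The cause of these changes was not tested. No detection calls were used here, so dim probes are not known to be above background.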
